A study of Schizosaccharomyces pombe with 6 samples.

Results

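Fission yeast takes up nitrogen through permeases in its plasma membrane and stores amino acids in its vacuole, and 9 genes of this kind were followed here while the transcription elongation factor Spt5 was depleted from Schizosaccharomyces pombe. They are isp4 and ptr2 for peptides, isp5, per1 and put4 for amino acids, amt1, amt2 and amt3 for ammonium, and fnx1 for amino acids at the vacuole. The genes were chosen by name, with earlier results of these data known. They were matched, through the names and synonyms of the reference annotation, to the authors' table of 5484 transcription units. Of the 9 genes, 7 have a unit in that table, and all 7 were among the 5208 units that passed the filter on low counts. The genes isp5 and amt3 matched no unit and are not analysed here.

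In many yeasts the genes for uptake of poor nitrogen sources are kept low while ammonium or glutamine is plentiful and are switched on when nitrogen runs short. In fission yeast this response is tied to the TOR kinases, to the GATA-family transcription factor Gaf1 and to the removal of permeases from the cell surface by ubiquitin. EMM, the medium used, is a minimal medium whose usual nitrogen source is ammonium, and none of the groups was labelled as starved of nitrogen.

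RNA made during the last minutes before harvest was isolated by feeding cells 4-thiouracil, a uracil analogue that living cells build into new RNA, at 5 mM for 10 min, and the labelled RNA was purified and sequenced. The groups were 0 h, 2.5 h and 4.5 h after thiamine and the auxin NAA (1-Napthaleneacetic acid) were added, with 2 libraries each, where 0 h is the time of addition. All 3 groups came from the same haploid h- strain, ASP167, in which spt5 is transcribed from the thiamine-repressed promoter Pnmt81 and its protein carries a V5 tag and an IAA17 degron. The strain also makes the receptors skp1-OsTIR1 and skp1-AtTIR1-2NLS-9myc from Padh15 promoters at ade6, and carries ura4-D18. There was no untreated time course and no strain without the degron, so the loss of Spt5 cannot be told apart from the effects of thiamine, of NAA or of growth over these hours. Libraries held 11525663 to 35673601 counts, and the 0 h libraries were the deepest. The unit of spt5 itself had a normalised read count, the count scaled to the library size by TMM and given as CPM, of 1040 and 721 CPM at 0 h, 121 and 108 CPM at 2.5 h, and 98.2 and 92.3 CPM at 4.5 h. This sets both later times apart from 0 h, but not 4.5 h from 2.5 h (log2 fold change −0.26, adjusted p = 0.443). TMM scaling centres most units near no change, so all rises and falls given here are relative to the other units. A change of new RNA shared by most units would not be seen. The 0 h libraries differed most from each other: 12.1% of the tested units were at least 2-fold apart between the replicates at 0 h, against 2.0% at 2.5 h and 1.63% at 4.5 h. Among the transporters, ptr2 and fnx1 were at least 2-fold apart at 0 h, and 0 of the 7 were later.

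The motif GATAAG, or CTTATC on the other strand, is the kind of site that GATA factors such as Gaf1 bind, and it was searched on both strands in the 250 bases before each unit. It was found in 449 of 4470 coding units (10.0%), and 2 or more copies stood in 27 of them (0.6%). Among the 7 transporters it was present before put4, with 2 copies whose first bases lay 243 and 131 bases before the unit, and before fnx1, with 1 copy at 232 bases. No match was found in the windows of isp4, per1, ptr2, amt1 and amt2. The windows are set by the authors' units and not by the reference genes: those of amt1 and ptr2 lie inside the reference genes, that of isp4 lies before the long leader described below, and that of amt2 lies before SPAC664.13, the first gene of its unit. The windows of isp4, per1 and ptr2 also run into another unit upstream on the same strand. For isp4 this is the unit rpl26/SPNCRNA.1444, and for per1 and ptr2 a noncoding unit. A contrast with put4 and fnx1, whose units begin within 3 bases of the reference genes, is limited by these positions. The shorter GATA, which is part of GATAAG, stood in 89.1% of windows. The windows of put4 and fnx1 are shown because they hold the motif, and that of per1 because its unit had the largest change among the transporters and no match. They were read from the RefSeq reference genome, whose nuclear coordinates matched the files' assembly ASM294v2, plus strand, 5′ to 3′, with the motif in capitals.
put4, chrI:5492917-5493166: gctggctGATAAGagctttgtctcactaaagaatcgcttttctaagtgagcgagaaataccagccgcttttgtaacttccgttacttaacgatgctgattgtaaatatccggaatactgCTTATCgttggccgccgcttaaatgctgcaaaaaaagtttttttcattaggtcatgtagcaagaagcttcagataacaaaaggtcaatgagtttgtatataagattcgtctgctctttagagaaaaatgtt
fnx1, chrII:2444043-2444292: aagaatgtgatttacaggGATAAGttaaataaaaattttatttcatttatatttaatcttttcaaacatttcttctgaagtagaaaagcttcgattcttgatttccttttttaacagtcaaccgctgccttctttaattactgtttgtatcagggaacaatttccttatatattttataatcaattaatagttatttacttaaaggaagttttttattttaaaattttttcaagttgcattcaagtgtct
per1, chrI:3749049-3749298: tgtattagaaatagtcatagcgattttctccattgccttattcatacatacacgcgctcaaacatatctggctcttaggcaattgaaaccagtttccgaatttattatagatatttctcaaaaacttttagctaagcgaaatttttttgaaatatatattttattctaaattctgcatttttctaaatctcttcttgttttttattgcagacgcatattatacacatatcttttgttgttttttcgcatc
A match of letters is not a measured binding site, and these data do not measure Gaf1.

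The peptide transporters were the units with the highest values relative to 0 h at both later times. Isp4, a plasma membrane transporter of the OPT oligopeptide family first found among genes induced in sexual differentiation, rose at 2.5 h. The isp4 unit (SPBC29B5.02c, chrII:1550296-1555886 of ASM294v2, minus strand, 0 introns) had 212 and 394 CPM at 0 h, 620 and 977 CPM at 2.5 h, and 645 and 653 CPM at 4.5 h. Both later times stood above both 0 h libraries, and the 4.5 h libraries lay between those of 2.5 h. The mean was 799 ± 253 CPM at 2.5 h against 303 ± 128 CPM at 0 h (SD, n = 2 each), a log2 fold change of 1.40 (SE 0.35, adjusted p = 0.0449 edgeR's quasi-likelihood test, Benjamini-Hochberg adjustment over all tested units). At 4.5 h the mean was 649 ± 5.57 CPM, and the log2 fold change of 1.10 against 0 h (SE 0.35, adjusted p = 0.0803) did not pass the threshold of 0.05, while by DESeq2 it was 1.02 and passed (adjusted p = 0.0469). The 2.5 h call was lost when DESeq2 size factors or library totals replaced the TMM scaling (log2 fold change 1.33 in both, adjusted p = 0.0559 and 0.0653).

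The isp4 unit is unusual in its shape. Its leader, the part before the coding sequence, is 3095 bases long in the authors' deposited table, where 0 of 3849 units with a leader length have a longer one and the median is 114 bases. The reference places the isp4 gene at chrII:1550293-1552791 only, so the counts of the unit also cover a long stretch before that gene, and reads from the stretch and from the gene cannot be told apart in these files. The unit rpl26/SPNCRNA.1444, which includes the gene of a large-subunit ribosomal protein, ends 90 bases upstream on the same strand. It had 349 and 97.7 CPM at 0 h, 412 and 324 CPM at 2.5 h, and 609 and 471 CPM at 4.5 h, and its log2 fold changes of 0.72 at 2.5 h and 1.27 at 4.5 h did not pass the test (adjusted p = 0.466 and 0.217). Downstream of isp4 lies atf1, which encodes a stress transcription factor, with log2 fold changes of −0.29 and −0.12 at 2.5 and 4.5 h (adjusted p = 0.449 and 0.768).

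Ptr2, which carries di- and tripeptides, had a similar order of times with a wider spread at 0 h. Its unit (SPBC13A2.04c, chrII:3405570-3407892, minus strand, 0 introns) had 108 and 49.5 CPM at 0 h, 167 and 151 CPM at 2.5 h, and 140 and 107 CPM at 4.5 h. The 2.5 h libraries were above all others, and the 4.5 h range overlapped that of 0 h. The mean was 159 ± 11.9 CPM at 2.5 h against 78.7 ± 41.3 CPM at 0 h (SD, n = 2 each), and the log2 fold change of 1.01 (SE 0.38, adjusted p = 0.126) did not pass. The 4.5 h value was 0.65 on the log2 scale (SE 0.38, adjusted p = 0.285). The value turned on the 0 h libraries: without 0 h replicate 1 it was 1.57 at 2.5 h and 1.21 at 4.5 h, and both passed (adjusted p = 0.00161 and 0.00313), while without 0 h replicate 2 it was 0.55 and 0.20. At its 3′ end the unit overlaps by 17 bases that of bbl1 on the other strand, which fell at 2.5 h (log2 fold change −1.07, SE 0.24, adjusted p = 0.0314).

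**Figure D1:**
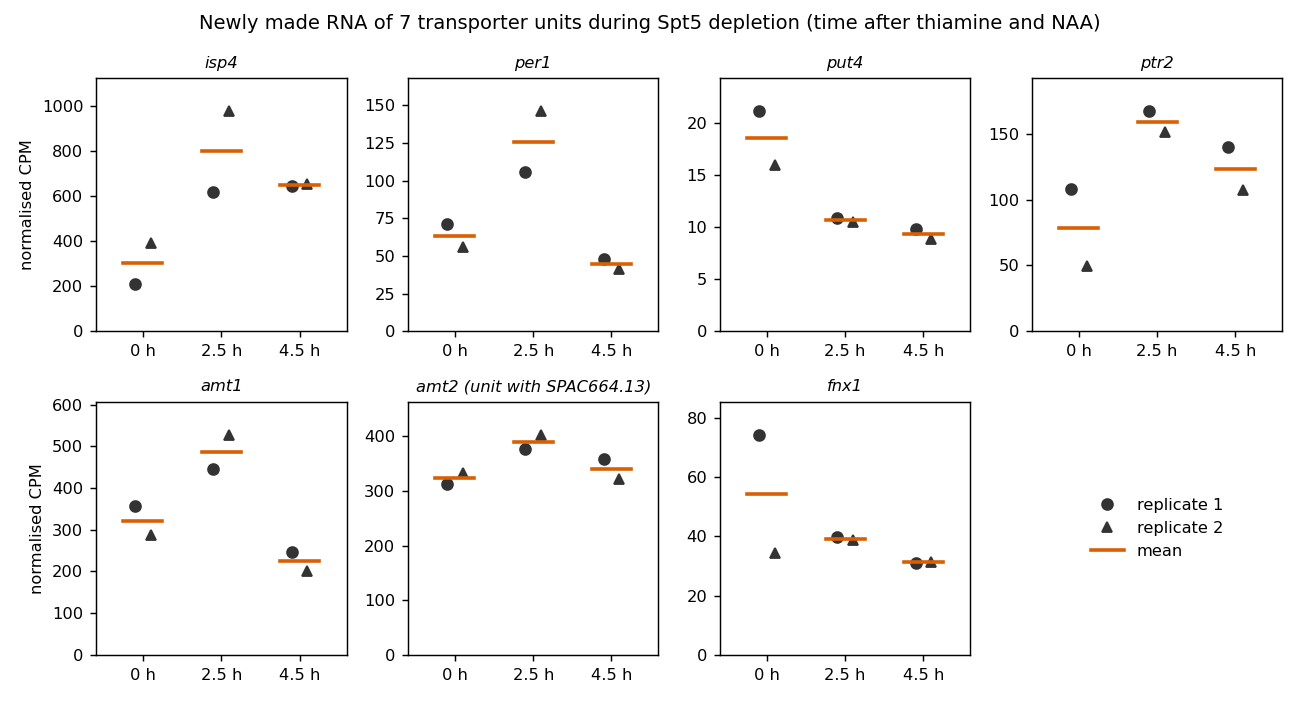
Normalised read count (CPM after TMM scaling, y axis from 0) of the 7 transporter units in each library at 0, 2.5 and 4.5 h (x axis); circles are replicate 1, triangles replicate 2 and orange bars the mean of the 2. The 2.5 h points of isp4, per1, ptr2, amt1 and the amt2 unit lie above their 0 h points, while both later times of put4 lie below 0 h.

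Among the amino acid permeases, per1 rose at 2.5 h and fell between 2.5 and 4.5 h, and put4 fell at 4.5 h against 0 h. Per1, an amino acid permease of the plasma membrane, was highest at 2.5 h. Its unit (SPAP7G5.06, chrI:3749299-3751573, plus strand, 0 introns) had 71.2 and 55.8 CPM at 0 h, 106 and 146 CPM at 2.5 h, and 47.7 and 41.2 CPM at 4.5 h. The ranges of the 3 times did not overlap, with 2.5 h highest and 4.5 h lowest. It rose to 126 ± 28.0 CPM at 2.5 h, against 63.5 ± 10.9 CPM at 0 h (SD, n = 2 each), a log2 fold change of 0.99 (SE 0.22, adjusted p = 0.0304). It then fell to 44.5 ± 4.6 CPM at 4.5 h, 2.84-fold below 2.5 h (log2 fold change −1.50, SE 0.22, adjusted p = 0.0238), and 3.1% of the tested units had a lower value in that comparison. Against 0 h the 4.5 h value was −0.51 (SE 0.22, adjusted p = 0.16).

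Put4, which imports proline, was the lowest of the 7 units and the only one to pass the test at 4.5 h against 0 h. Its unit (SPAC869.10c, chrI:5493167-5494953, plus strand, 0 introns) had 21.1 and 16.0 CPM at 0 h, 10.9 and 10.5 CPM at 2.5 h, and 9.81 and 8.85 CPM at 4.5 h. Each library rests on 122 to 636 counts, and the 3 ranges did not overlap. It fell to 9.33 ± 0.679 CPM at 4.5 h, against 18.5 ± 3.59 CPM at 0 h (SD, n = 2 each), a log2 fold change of −0.99 (SE 0.22, adjusted p = 0.0312). At 2.5 h it was 10.7 ± 0.271 CPM, and the log2 fold change of −0.79 (SE 0.22, adjusted p = 0.0566) missed the threshold. That 2.5 h value passed with DESeq2 (−0.84, adjusted p = 0.00846), with DESeq2 size factors in edgeR (−0.84, adjusted p = 0.0403) and with library totals (−0.80, adjusted p = 0.0437).

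The ammonium transporters were the units with the most new RNA per length at 0 h. Amt1, one of the 3 Amt proteins that carry ammonium across the plasma membrane, had 357 and 288 CPM at 0 h, 445 and 527 CPM at 2.5 h, and 246 and 202 CPM at 4.5 h (unit of SPCPB1C11.01, chrIII:2069662-2071704, plus strand, 0 introns). As for per1, the 3 ranges did not overlap and 2.5 h was highest. It fell to 224 ± 30.9 CPM at 4.5 h, against 486 ± 58.5 CPM at 2.5 h (SD, n = 2 each), a log2 fold change of −1.12 (SE 0.19, adjusted p = 0.0307). Against the 0 h mean of 322 ± 49.2 CPM, the log2 fold changes of 0.59 at 2.5 h (SE 0.19, adjusted p = 0.086) and −0.52 at 4.5 h (SE 0.19, adjusted p = 0.112) did not pass.

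Amt2 shares its unit with SPAC664.13, an uncharacterized protein gene, so its counts are those of both genes together (chrI:1729381-1733475, plus strand, 0 introns). The unit had 312 and 333 CPM at 0 h, 377 and 402 CPM at 2.5 h, and 359 and 321 CPM at 4.5 h. It varied least of the 7: its log2 fold changes were 0.27 at 2.5 h (SE 0.15, adjusted p = 0.248), 0.08 at 4.5 h (SE 0.15, adjusted p = 0.757) and −0.20 at 4.5 h against 2.5 h (SE 0.15, adjusted p = 0.413). The small 4.5 h value turned to −0.02 with library totals. The SPAC664.13/amt2 unit overlaps that of sdh6 on the other strand by 174 bases, and sdh6 was not called in any comparison.

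Fnx1 carries amino acids into the vacuole and is known for its part in entry into quiescence when nitrogen is lost. Its unit (SPBC12C2.13c, chrII:2444293-2446237, plus strand, 0 introns) had 74.2 and 34.3 CPM at 0 h, 39.7 and 38.7 CPM at 2.5 h, and 30.9 and 31.4 CPM at 4.5 h. The later libraries agreed closely, the 2.5 h values lay between those of 0 h, and the 4.5 h values lay below both. The log2 fold changes of −0.47 at 2.5 h (SE 0.35, adjusted p = 0.401) and −0.80 at 4.5 h (SE 0.35, adjusted p = 0.17) did not pass. They turned on the 0 h libraries: without 0 h replicate 2 they were −0.93 and −1.24 and passed (adjusted p = 0.00311 and 0.0012), and without 0 h replicate 1 they were 0.08 and −0.25.

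**Figure D2:**
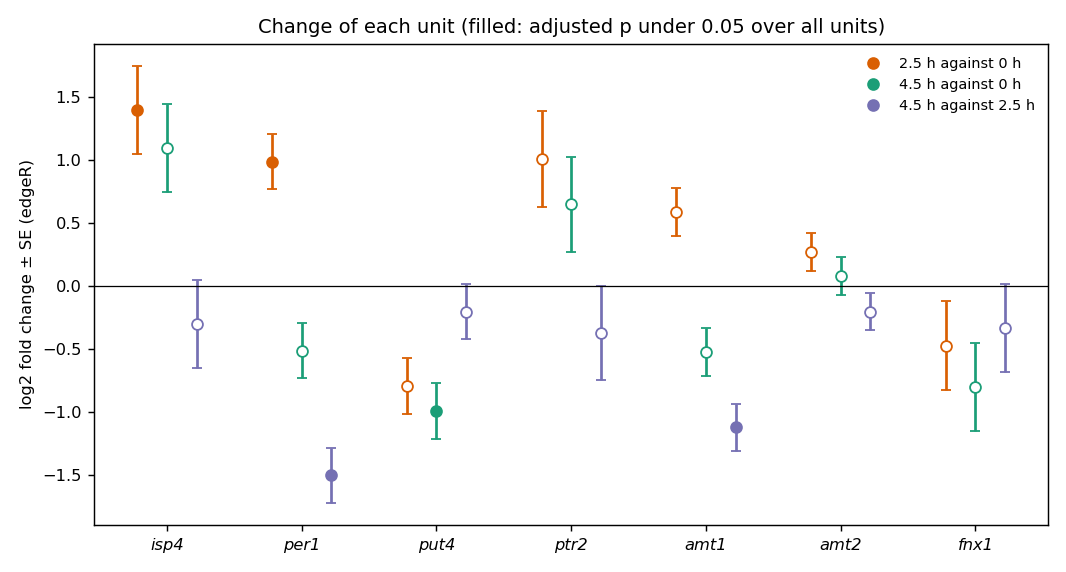
Log2 fold change of each of the 7 transporter units (x axis) by edgeR, with bars of 1 SE (y axis), for 2.5 h against 0 h, 4.5 h against 0 h and 4.5 h against 2.5 h; filled points passed an adjusted p of 0.05 over all tested units. The filled points are isp4 (1.40) and per1 (0.99) at 2.5 h, put4 (−0.99) at 4.5 h, and per1 (−1.50) and amt1 (−1.12) between 2.5 and 4.5 h.

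Counted together at 2.5 h against 0 h, 2 of the 7 units rose (isp4 and per1) and 0 fell, where 12.3% of all 5208 tested units rose and 5.11% fell. By DESeq2 the count that fell was 1 (put4), where 715 of all units rose and 459 fell. Of the 7 units, 5 had an unadjusted p under 0.05 in edgeR. The median log2 fold change was 0.59 over the 7 units and 0.008 over all tested units, where the scaling holds it near 0. The 7 values ran from −0.79 to 1.40. At 4.5 h against 0 h, 0 rose and 1 fell (put4), where 10.1% of all tested units rose and 7.8% fell. By DESeq2 1 rose (isp4), where 610 of all units rose and 630 fell. Of the 7 units, 3 had an unadjusted p under 0.05 in edgeR. The median was −0.51 against 0.017 over all tested units, with values from −0.99 to 1.10. Between 2.5 and 4.5 h, 0 rose and 2 fell (per1 and amt1), where 3.34% of all tested units rose and 6.91% fell. DESeq2 gave the same counts for the transporters, where 336 of all units rose and 584 fell. Of the 7 units, 2 had an unadjusted p under 0.05 in edgeR. The median was −0.33 against −0.009 over all tested units. All 7 values were negative at 4.5 h against 2.5 h, from −1.50 to −0.20, but 5 of the 7 were not called. Without 2.5 h replicate 2 the isp4 value was 0.07, and the share of negative values over all tested units is not given here. The 3 comparisons share libraries, and counts of 2 or fewer among 7 units do not by themselves set the transporters apart from the other units. The share of all tested units with an unadjusted p under 0.05 is not given here. Counts of transporters at that unadjusted threshold therefore do not set them apart either.

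Leaving out 1 library ended each of these calls in 4 of 6 fits. The calls of isp4 and per1 at 2.5 h were lost without either 2.5 h library and without either 4.5 h library, and they held without either 0 h library. Without 2.5 h replicate 1 the log2 fold change of isp4 was 1.68 (adjusted p = 0.0925) and that of per1 1.19 (adjusted p = 0.0736). Without 2.5 h replicate 2 they were 1.03 (adjusted p = 0.247) and 0.74 (adjusted p = 0.192). The loss without a 4.5 h library came with the same effect size: isp4 had 1.39 (adjusted p = 0.1 without replicate 1 and 0.0999 without replicate 2) and per1 had 0.98 (adjusted p = 0.0747 and 0.0746). For put4 at 4.5 h the value ranged from −1.17 to −0.88 and passed without either 0 h library, but not without a 2.5 h or 4.5 h library (adjusted p = 0.0805 to 0.244). Between 2.5 and 4.5 h the values ranged from −1.71 to −1.25 for per1 and from −1.26 to −0.98 for amt1. The 0 h libraries are not part of that comparison and enter it only through the scaling and the shared estimate of the spread. Leaving 1 of them out therefore does not test these falls. Both falls no longer passed without any 1 of the libraries compared, and the calls over all tested units were lost in those fits as well. In both comparisons with 0 h, more transporter units were called without a 0 h library and fewer without any 1 of the other libraries. The number called over all tested units moved in the same direction in each of these fits. These shifts are therefore no result about the transporters.

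**Figure D3:**
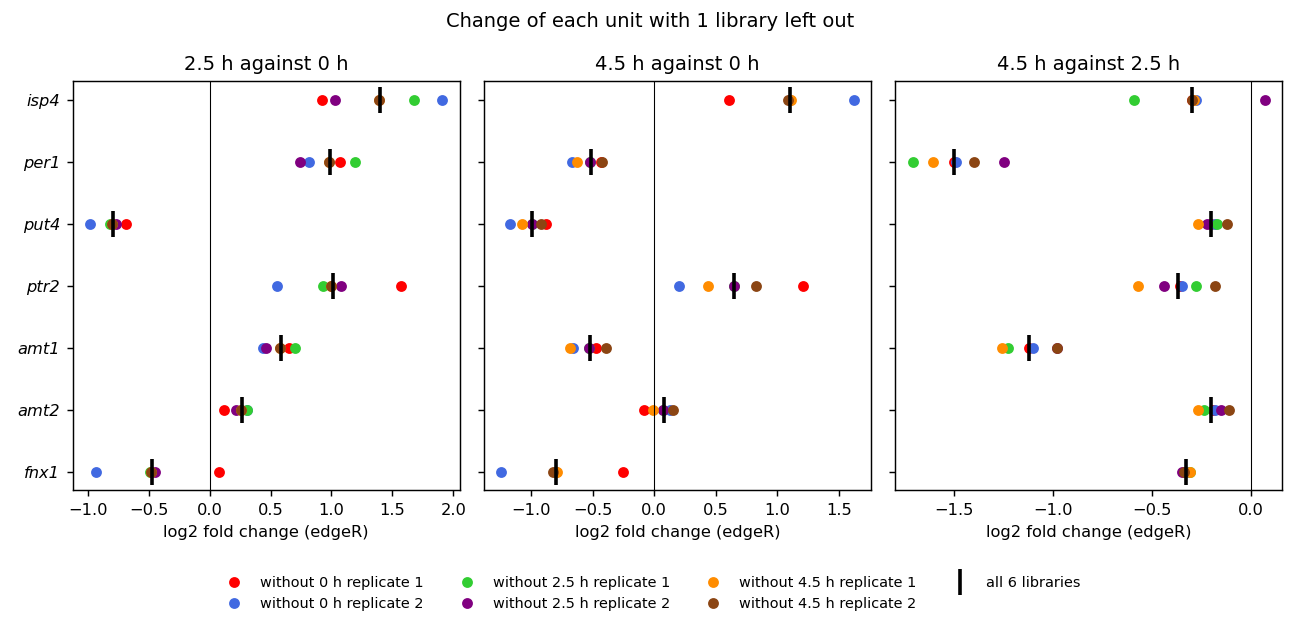
Log2 fold change (x axis, edgeR) of each of the 7 transporter units (rows) in the 3 comparisons (panels) with all 6 libraries (black bars) and with 1 library left out (coloured points). The points of isp4, ptr2 and fnx1 spread widely when a 0 h library was left out, with fnx1 at 2.5 h between −0.93 and 0.08, while the points of per1 and amt1 between 2.5 and 4.5 h stay below 0.

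Levels were compared between genes as mean CPM per kilobase of unit. At 0 h amt1 had 158 CPM per kilobase, followed by the amt2 unit (78.8), isp4 (54.1), ptr2 (33.9), per1 (27.9), fnx1 (27.9) and put4 (10.4). The ranges of isp4, ptr2, per1 and fnx1 overlapped from 1 neighbour to the next at 0 h, while amt1, the amt2 unit and put4 stood clear of their neighbours. At 2.5 h the order was amt1 (238), isp4 (143), the amt2 unit (95.1), ptr2 (68.4), per1 (55.4), fnx1 (20.2) and put4 (5.98), and no neighbours overlapped, although ptr2 and per1 came close. At 4.5 h isp4 (116) and amt1 (110) overlapped, and the amt2 unit (83.0), ptr2 (53.1), per1 (19.5), fnx1 (16.0) and put4 (5.22) followed without overlap. So isp4 was below both ammonium units at 0 h and shared the first place with amt1 at 4.5 h. The isp4 value is over its whole unit, long leader included.

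Of the 7 units, 3 had a noncoding unit of the authors' table ending within 500 bases upstream on the same strand, as did 164 of 4470 coding units (3.7%). They lie before per1, ptr2 and amt1. The unit before per1 (chrI:3747212-3749129, 169 bases away) lies outside the reference per1 gene. It had 31.0 and 33.5 CPM at 0 h, 70.2 and 99.3 CPM at 2.5 h, and 19.6 and 20.5 CPM at 4.5 h. It rose at 2.5 h (log2 fold change 1.39, SE 0.20, adjusted p = 0.00987) and fell between 2.5 and 4.5 h (−2.08, SE 0.21, adjusted p = 0.0152), so it passed the test in the same 2 comparisons and directions as per1. Its counts amounted to 43.5 and 60.1% of those of the per1 unit at 0 h, 66.0 and 68.1% at 2.5 h, and 41.0 and 49.7% at 4.5 h.

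The unit before amt1 (chrIII:2068980-2069379, 282 bases away) lies with all its 400 bases inside the reference amt1 gene, which begins at position 2068979, so the authors' division into a noncoding and a coding unit is not the reference's. It had 32.4 and 28.7 CPM at 0 h, 82.1 and 78.9 CPM at 2.5 h, and 37.6 and 38.6 CPM at 4.5 h. It rose at 2.5 h (log2 fold change 1.40, SE 0.15, adjusted p = 0.00538), where the amt1 unit itself had 0.59 and did not pass, and fell between 2.5 and 4.5 h (−1.08, SE 0.15, adjusted p = 0.0205). Its counts were 9.06 and 9.99% of those of the amt1 unit at 0 h, 18.5 and 15.0% at 2.5 h, and 15.3 and 19.1% at 4.5 h. Both later times lay above 0 h in this ratio, which was not tested. The unit before ptr2, of which 339 of 420 bases lie inside the reference ptr2 gene, was low (1.91 to 6.72 CPM) and was not called, with a log2 fold change of 1.22 at 2.5 h (SE 0.35, adjusted p = 0.0614). Of all 749 noncoding units tested, 301 rose and 5 fell at 2.5 h against 0 h, with a median log2 fold change of 1.08, so a rise at 2.5 h was common in this class. Between 2.5 and 4.5 h 4 of the 749 rose and 88 fell, with a median of −0.46. Reference lncRNAs on the opposite strand overlap all 7 transporter units, as they do 76.8% of coding units (3434 of 4470). The strand setting of the counting is not given in the sources used here, so sense and antisense reads over these units cannot be told apart.

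**Figure D4:**
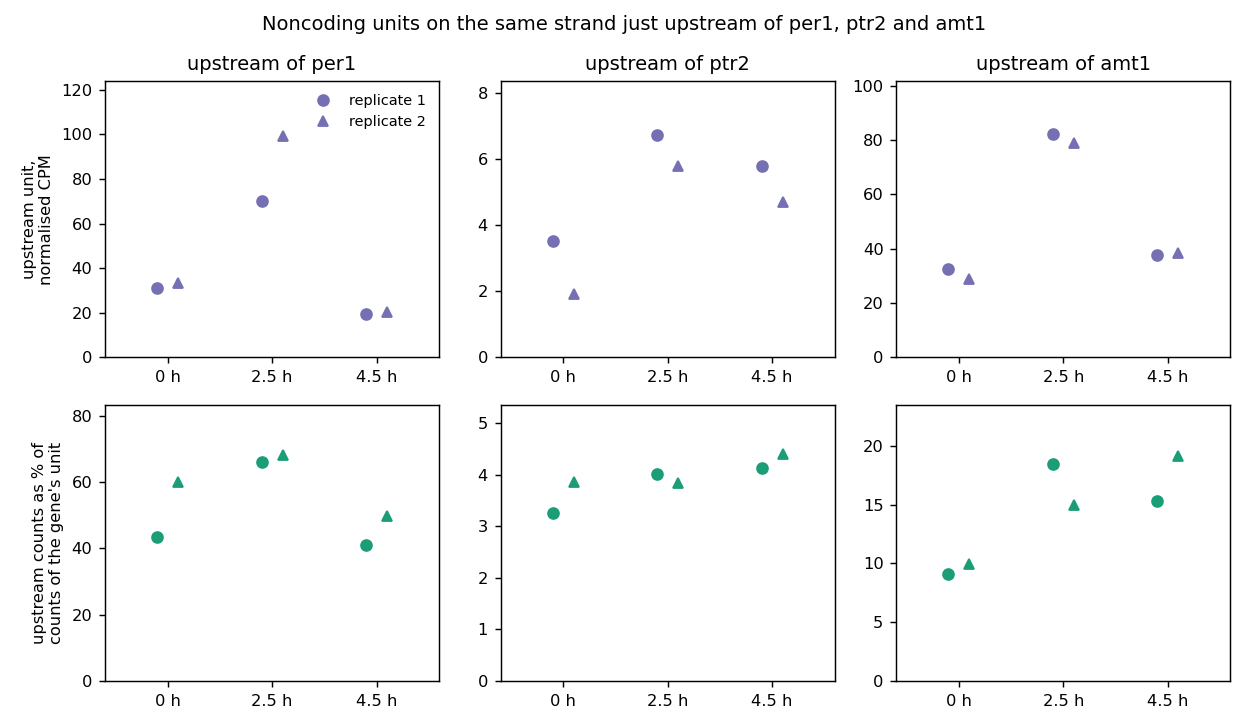
Upper panels show the normalised read count (CPM, y axis from 0) of the noncoding units just upstream of per1, ptr2 and amt1 in each library at 0, 2.5 and 4.5 h (x axis); lower panels show their raw counts as a percent of the raw counts of the gene's own unit. Before amt1 the percent is 9.06 and 9.99 at 0 h and 15.0 to 19.1 at the later times, while before per1 it is highest at 2.5 h.

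Lists of related genes are given as counts, to be read against all tested units, of which 12.3% rose and 5.11% fell at 2.5 h, 10.1% rose and 7.8% fell at 4.5 h against 0 h, and 3.34% rose and 6.91% fell between 2.5 and 4.5 h. In nitrogen assimilation, 1 of 17 tested units (5.88%) rose and 0 fell at 2.5 h (median log2 fold change −0.18); the unit that rose was that of gdh1. Gdh1 makes glutamate from ammonium, and its unit, which it shares with tti1, had a mean of 1020 CPM at 2.5 h against 541 CPM at 0 h (log2 fold change 0.91, SE 0.21, adjusted p = 0.0339). At 4.5 h 0 rose and 3 fell (17.6%) against 0 h (median −0.50). These were car1, encoding arginase, at 23.1 CPM against 81.3 CPM (−1.81, adjusted p = 0.0046), glt1, encoding glutamate synthase, at 1800 CPM against 4660 CPM (−1.37, adjusted p = 0.0149), and put1, encoding the proline dehydrogenase that begins breakdown of the proline put4 imports, at 127 CPM against 280 CPM (−1.14, adjusted p = 0.0265). Between 2.5 and 4.5 h 0 rose and 2 fell (11.8%, median −0.55): car1 (−1.63, adjusted p = 0.0152) and uro1, encoding uricase (−1.53, adjusted p = 0.0495).

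In nitrogen and TOR signalling, 1 of 30 units rose (3.33%) and 4 fell (13.3%) at 2.5 h (median −0.17), 2 rose (6.67%) and 3 fell (10.0%) at 4.5 h against 0 h (−0.09), and 2 rose (6.67%) and 4 fell (13.3%) between them (0.14). The counts at 4.5 h against 0 h are near those of all units. The riser at 2.5 h was isp7, an oxygenase gene known to act on amino acid permease expression in this yeast, with 569 CPM at 2.5 h against 349 CPM at 0 h (log2 fold change 0.71, adjusted p = 0.0376). It then fell to 248 CPM at 4.5 h, against 569 CPM at 2.5 h (−1.20, adjusted p = 0.0234). That is the order of times seen for per1 and amt1. Units that fell at 2.5 h included those of TOR complex genes: wat1, shared by the complexes (−1.02, adjusted p = 0.00873), and ste20, a subunit of TORC2 (−0.74, adjusted p = 0.0486). The TOR kinase genes tor1 and tor2, and mip1, toc1, tco89, sin1 and bit61 of the same list, were not called in any comparison. Wat1 rose again, to 65.2 CPM at 4.5 h against 40.8 CPM at 2.5 h (0.68, adjusted p = 0.0413), and sck2, a kinase gene named here after its values were seen, did likewise, with −0.58 at 2.5 h (adjusted p = 0.0345) and 0.59 between 2.5 and 4.5 h (adjusted p = 0.0473). At 4.5 h against 0 h, npr2 (−1.17, adjusted p = 0.015) and npr3 (−0.94, adjusted p = 0.0112 by edgeR) fell. They are partners in a complex that restrains TORC1, and iml1 of the same list was not called in any comparison. Gcn2, the kinase that senses uncharged tRNA, fell too (−0.91, adjusted p = 0.0184 by edgeR). Psk1, a kinase downstream of TORC1, rose (1.01, adjusted p = 0.0114). So did the unit of rhb1, named here after its values were seen (0.8, adjusted p = 0.0349 by edgeR). Between 2.5 and 4.5 h, npr2 (−1.02, adjusted p = 0.0377), npr3 (−0.74, adjusted p = 0.0355) and gcn2 (−0.84, adjusted p = 0.0385) fell by edgeR.

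Of 6 units in the list of vacuolar amino acid carriers, 2 fell (33.3%) in each of the 3 comparisons and 0 rose in any (medians −0.16, −0.50 and −0.55). The list leaves out SPAC2E12.03c, which the reference names a vacuolar transporter of basic amino acids. That unit rose at 2.5 h (log2 fold change 1.07, adjusted p = 0.028 by edgeR) and is given below with the other permeases. Fnx2, the close relative of fnx1, fell in all 3: it had 83.0 and 69.9 CPM at 0 h, 35.7 and 37.0 CPM at 2.5 h, and 21.5 and 19.3 CPM at 4.5 h. Its log2 fold changes were −1.07 at 2.5 h (adjusted p = 0.0108), −1.91 at 4.5 h (adjusted p = 0.0046) and −0.84 between them (adjusted p = 0.0385). The others were avt3 at 2.5 h (−0.57, adjusted p = 0.0485), avt5 between 2.5 and 4.5 h (−0.85, adjusted p = 0.0472), and ers1 at 4.5 h (−0.96, adjusted p = 0.0271), which the reference describes as an RNA-silencing factor and not a carrier. In autophagy, the route that frees amino acids from the cell's own proteins, 3 of 26 units rose (11.5%) and 1 fell (3.85%) at 2.5 h (median 0.02), 0 rose and 1 fell (3.85%) at 4.5 h against 0 h (−0.07), and 0 rose and 1 fell (3.85%) between them (0.08). None of these shares is above that of all tested units, so the counts are no result about autophagy genes. The members with the largest called changes were atg5, which rose at 2.5 h (1.28, adjusted p = 0.00677) and fell between 2.5 and 4.5 h (−1.52, adjusted p = 0.0152), atg17, which rose at 2.5 h (0.82, adjusted p = 0.0172), and the lipase gene atg15, which fell at 2.5 h and at 4.5 h against 0 h (−0.69 and −0.58, adjusted p = 0.0206 and 0.0332).

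Among 19 tested units of other amino acid and peptide permeases, chosen by the product names of the reference, 2 rose (10.5%) and 3 fell (15.8%) at 2.5 h (median −0.25), 0 rose and 10 fell (52.6%) at 4.5 h against 0 h (median −0.92), and 0 rose and 8 fell (42.1%) between 2.5 and 4.5 h (median −0.58). Agp3, encoding an amino acid transporter, had 12.5 and 13.0 CPM at 0 h, 22.9 and 32.3 CPM at 2.5 h, and 2.59 and 2.93 CPM at 4.5 h. It rose at 2.5 h (log2 fold change 1.11, adjusted p = 0.025) and fell at 4.5 h both against 0 h (−2.21, adjusted p = 0.00681) and against 2.5 h (−3.32, adjusted p = 0.0151). SPAC2E12.03c, encoding a transporter of basic amino acids at the vacuole, had 90.8 and 127 CPM at 0 h, 215 and 243 CPM at 2.5 h, and 28.8 and 39.3 CPM at 4.5 h. It too rose at 2.5 h (1.07, adjusted p = 0.028). At 4.5 h it fell both against 0 h (−1.68, adjusted p = 0.0104) and against 2.5 h (−2.75, adjusted p = 0.0152). Opt3, of the same OPT family as isp4, had 40.0 and 55.1 CPM at 0 h, 72.1 and 123 CPM at 2.5 h, and 11.5 and 10.3 CPM at 4.5 h. It fell at 4.5 h against 0 h (−2.13, SE 0.31, adjusted p = 0.0108), where isp4 had 1.10 and did not pass. Opt3 also fell between 2.5 and 4.5 h (−3.16, adjusted p = 0.0152), where isp4 had −0.3 and did not pass. All 3 counts changed when 1 library was left out, and nearly all calls were lost without a library of the later time. The calls over all tested units moved in the same direction in each of these fits, so the shifts are no result about the permeases. With 1 library left out the median ranged from −0.58 to −0.16 at 2.5 h and from −1.02 to −0.87 at 4.5 h against 0 h. Between 2.5 and 4.5 h it ranged from −0.73 to −0.55. This list holds fnx2, avt3, avt5 and atg22 of the vacuolar list as well.

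**Figure D5:**
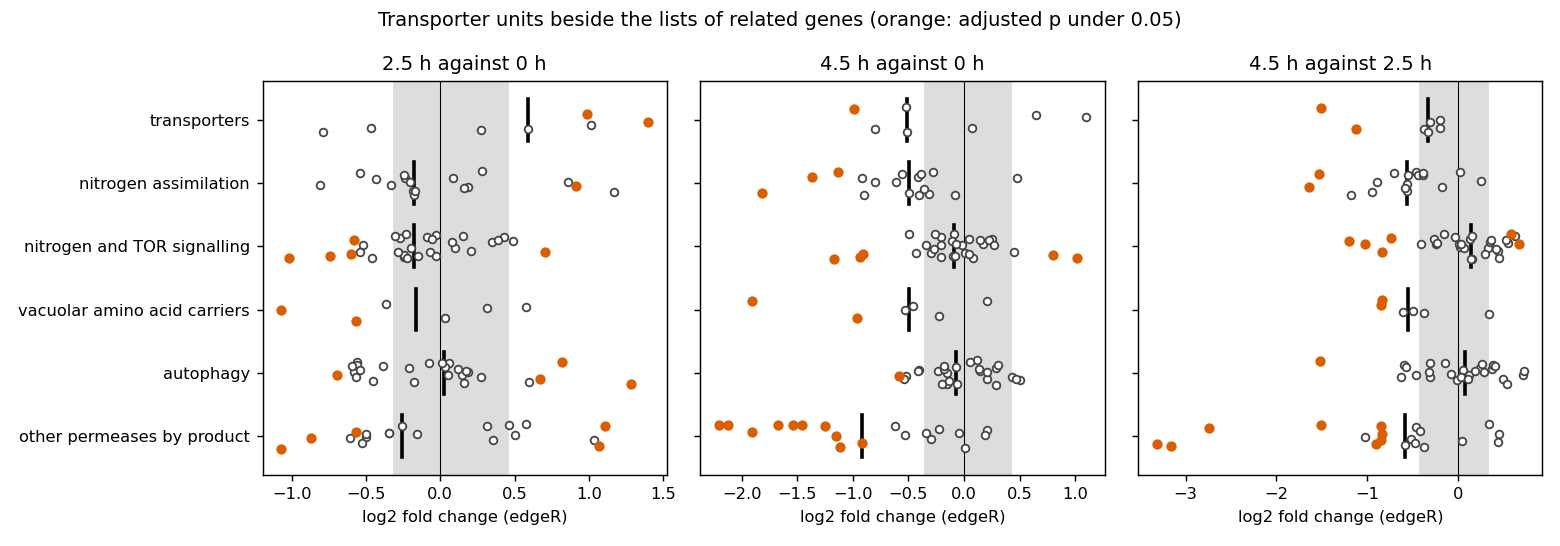
Log2 fold change (x axis, edgeR) of the 7 transporter units and of 5 lists of related genes (rows) in the 3 comparisons (panels); each point is 1 unit, orange points passed an adjusted p of 0.05, black bars are medians and the grey band holds the middle 50% of all tested units. At 4.5 h against 0 h the other permeases have 10 orange points, all below 0 and with a median of −0.92, and the 7 transporters have 1.

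The units most like the 3 transporters of widest range were sought among the 3835 units that have a symbol and average 50 counts or more, by the root mean square distance of log2 CPM centred on each unit's mean over the 6 libraries. For per1 (range of group means 1.49 on the log2 scale) they were dcr2 (0.13), fip1 (0.18) and prm1 (0.18). The iron permease gene fip1 had 144 and 135 CPM at 0 h, 192 and 260 CPM at 2.5 h, and 89.6 and 97.6 CPM at 4.5 h. For isp4 (1.43) they were pho841, a phosphate transporter gene (0.16), wtf11 (0.16) and the unit of ish1 and SPNCRNA.1523 (0.16), and for amt1 (1.12) pas4 (0.10), swd2 (0.12) and dcc1 (0.12). Among the 21 pairs of transporters, per1 and amt1 were closest (0.19), then put4 and fnx1 (0.27), and isp4 and put4 were farthest apart (1.11). These distances describe 6 libraries and carry no test.

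The authors' deposited table also ranks the units by kinetic scores whose time unit is not stated. These scores are given per unit and belong to none of the 6 libraries, so they do not describe the depletion. By the half-life score in the authors' deposited table, ptr2 and amt1 were among the short-lived, with 6.1% and 11.0% of 5471 units lower, while fnx1 and the amt2 unit were higher in the order (78.0% and 65.1%). Per1 (22.6%), isp4 (29.0%) and put4 (43.2%) lay between, per the authors' deposited table. By the synthesis time score in the authors' deposited table, ptr2 stood apart from the rest, with 1.9% of units lower, and the others lay between 43.8% for the amt2 unit and 80.6% for amt1.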

How the data were processed

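The authors deposited 1 file of raw counts per library, with a whole number for each transcription unit. STAR 2.3.0, SAMtools and ASM294v2 are named in the submitters' processing notes. How reads were counted, with which strand setting, and what was done with multi-mapping reads is not stated there, in the labels or in the files. The authors' deposited table gives, per its header, other values per unit (positions and leader lengths in bases) and kinetic scores, used only as ranks.

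The test was edgeR 4.0.16 (R 4.3.3) with TMM scaling after filterByExpr on the time points, 1 robust quasi-likelihood fit over all 6 libraries (3 residual degrees of freedom), two-sided, with Benjamini-Hochberg adjustment over 5208 units and a threshold of 0.05. CPM are TMM-scaled. A floor of 3 counts corresponds to 0.0841 to 0.26 CPM. The labels call the libraries of a time biological replicates; where cultures were shared, p-values measure only the spread between these libraries. Alternatives were DESeq2 1.42.0, other scalings and filters, fits of 2 time points, the replicate number as a block and leaving out each library. Of 5062 gene IDs 5028 matched the reference, and 4894 of 4912 introns had the usual end bases in it.

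The 9 genes and the lists were chosen with earlier results of these data known. All 9 genes were to be named, and from each list and comparison up to 3 called units with the largest change and a mean count of at least 50. Of the names given, 8 of 27 in nitrogen assimilation, 4 of 10 in the vacuolar list and 1 of 27 in autophagy were not in the reference, and 3 of 22 other permeases had no unit.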

Additional observations from a re-analysis of the deposited data

Results flagged for a closer look

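The change of per1 differed between the 2 later times: it was above 0 h at 2.5 h (log2 fold change 0.99) and below 0 h at 4.5 h (−0.51, adjusted p = 0.16), and the difference itself, 4.5 h against 2.5 h, was −1.5 (SE 0.22, adjusted p = 0.0238 by edgeR's quasi-likelihood test). The change of amt1 differed in the same way, with 0.59 at 2.5 h (adjusted p = 0.086) and −0.52 at 4.5 h (adjusted p = 0.112), and a difference of −1.12 (SE 0.19, adjusted p = 0.0307 by edgeR). In both, each 4.5 h library lay below each 2.5 h library. Beside them, the noncoding units just upstream of per1 and amt1 fell by 2.08 and 1.08 on the log2 scale over the same interval, in which 88 of 749 noncoding units fell and 4 rose (median −0.46), and their part in the result was not tested.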

How the results depend on the processing

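The number of units called was 908 at 2.5 h against 0 h, 932 at 4.5 h against 0 h and 534 at 4.5 h against 2.5 h. With only the libraries of the 2 time points compared it was 420, 363 and 2009; between 2.5 and 4.5 h it was 920 by DESeq2 and 328 with library totals. Leaving out 1 library gave 1 to 2215, 48 to 2186 and 0 to 2024. Between 2.5 and 4.5 h 32.6% of the calls were higher, against 12.8% with library totals. Among the 7 transporter units, 2, 1 and 2 were called. At 2.5 h this became 4 with the replicate block (isp4, per1, put4 and ptr2) and 0 with only 2 time points. At 4.5 h against 0 h it became 2 by DESeq2 and 2 with the replicate block (isp4 and put4 in both), and 0 with only 2 time points. Leaving out 1 library gave 0 to 5, 0 to 5 and 0 to 2 called. Among the other permeases, leaving out 1 library, an alternative chosen after seeing the data, gave 0 to 12, 0 to 14 and 0 to 16, against 5, 10 and 8. When 1 library is left out, the lone library of that time is assumed to vary like those of the other times; the cause of these shifts was not tested.

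Directions turned in 5 cases, and none of the turned values passed the test. Leaving out 1 library gave fnx1 at 2.5 h −0.93 to 0.08 (0.08 without 0 h replicate 1). The amt2 unit at 4.5 h against 0 h was −0.02 with library totals, −0.08 without 0 h replicate 1 and −0.01 without 4.5 h replicate 1, in a range of −0.08 to 0.15. Isp4 between 2.5 and 4.5 h was 0.07 without 2.5 h replicate 2, in a range of −0.59 to 0.07. Of the other values of single transporter units, with 1 library left out, 92 kept direction and side of the threshold, 20 no longer passed and 10 newly passed. With the remaining alternatives these numbers were 134, 5 and 7.

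The labels give the libraries of each time the replicate numbers 1 and 2 but do not say that a number marks a shared culture. The difference of replicate 1 from replicate 2 correlated across units by 0.46 between 0 and 2.5 h, 0.209 between 0 and 4.5 h and 0.103 between 2.5 and 4.5 h. With the number as a block, 977, 1072 and 589 units were called, and isp4 at 4.5 h against 0 h had 1.18 (adjusted p = 0.0226 by edgeR), ptr2 at 2.5 h 1.10 (adjusted p = 0.0334) and put4 at 2.5 h −0.78 (adjusted p = 0.0475), all 3 passing; it changed no other call of a transporter unit. The lowest counts of these units were those of put4, 122 to 636 per library, and no fit varied the depth.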
